A study of Mus musculus with 2 samples.

Results

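The 8 genes described here encode enzymes of cholesterol synthesis. They are Hmgcs1, Mvd, Idi1, Fdps, Fdft1, Sqle, Lss and Cyp51, taken by gene symbol from the 22882 symbols measured by RNA-seq in mouse heart. All 8 were found, each on a single row. The rule uses their symbols and no measured value, but the members were chosen with earlier results of these data known. The control library was made from the pooled heart RNA of 5 Med1fl/fl mice, in which exons of Med1, a subunit of the Mediator complex, are flanked by loxP sites. The other library was made in the same way from 5 csMed1-/- mice, which carry the same floxed allele together with a Cre transgene driven by the α-myosin heavy chain promoter, so that Med1 is deleted in cardiomyocytes. All mice were 23 days old, on a C57BL6/J background and of mixed sex. In the study's methods Cre belongs to the csMed1-/- mice alone, so an effect of Cre itself and one of Med1 loss cannot be told apart. Each genotype thus has 1 library and no replicates, the variation between pools is unknown, and no difference below was tested.

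Cells build cholesterol from acetyl-CoA. The early enzymes make mevalonate and turn it into isoprene units, Fdps joins these into farnesyl diphosphate, and Fdft1 takes farnesyl diphosphate into squalene, the first step that leads to sterols alone. Sqle and Lss convert squalene into lanosterol, the first sterol ring, which Cyp51 and later enzymes process to cholesterol. In most cells these genes are switched on together when membrane cholesterol is low, by the transcription factor SREBP-2, the product of Srebf2.

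Expression was measured as FPKM, which divides the fragments of a gene by its transcript length and by library size, so that levels can be compared between genes. Med1 itself had 3.38 FPKM in the control and 0.412 FPKM in the csMed1-/- library. A gene was kept for counting when it was above 0 in both libraries and reached 1 FPKM in at least one of them, and 10489 genes were kept. Changes larger than 2-fold were counted. In 2425 genes above 0 in both libraries and at most 0.15 FPKM in each, the most frequent ratio was 0.722. It was read as the ratio of 1 fragment in each library. If the values were scaled by total fragments alone, the csMed1-/- library was sequenced 1.39 times as deeply as control. The scaling used is not given. The absolute depth is not given. Of the heart muscle genes that identify the tissue, Tnnt2 stood at 2280 FPKM in the control and 1119 FPKM in the csMed1-/- library, and Myl2 at 20467 and 6571 FPKM. Actc1 and the joint row of Myh6 and Myh7 are listed at 0 in the control library against 9189 and 647 FPKM in the csMed1-/- library, so a 0 in these files can be a failed estimate. None of the 8 enzymes was listed at 0.

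The enzymes did not move together. In the csMed1-/- library 5 of the 8 were higher and 3 were lower than in control, and the log2 ratios ran from -1.65 for Fdft1 to 1.95 for Lss. Only these 2 genes differed by more than 2-fold, and the other 6 lay within 2-fold. Of the 8, 6 passed the filter on low values, while Idi1 and Sqle were under 1 FPKM in both libraries. Among the 6, 1 was lower by more than 2-fold, where 18.0% of all genes kept were, and 1 was higher by more than 2-fold, where 13.6% of all genes kept were. The higher gene, Lss, passed the filter through the csMed1-/- library alone, and Cyp51, which was lower, through the control library alone. With 1 FPKM required in both libraries, 0 of 4 enzymes were higher by more than 2-fold, beside 1037 of 9160 genes. The median log2 ratio was 0.26 over all 8 enzymes and -0.09 over the 6 that passed, against -0.07 over the 10489 genes kept. For the 8 enzymes the lower and upper quartiles of the log2 ratio were -0.58 and 0.44, against -0.72 and 0.55 for all genes kept. The 8 include Idi1 and Sqle, which did not pass the filter, so these sets are not alike and their spreads cannot be compared.

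**Figure D1:**
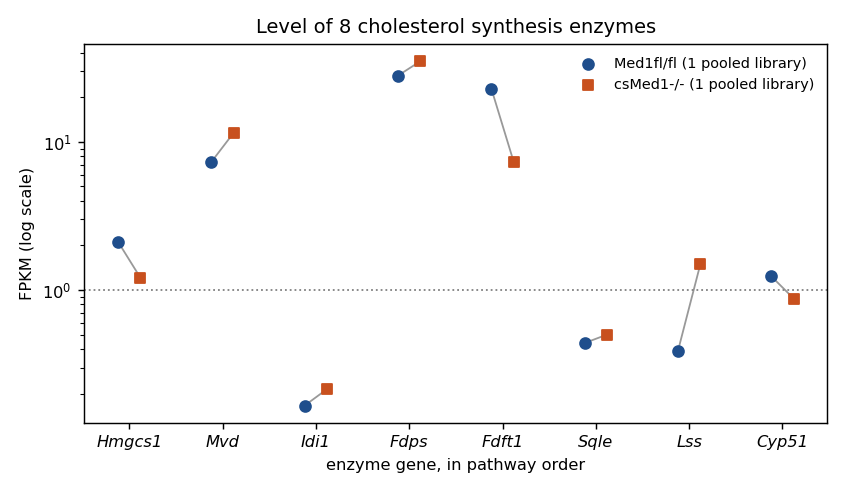
FPKM (log scale) of the 8 enzyme genes, in pathway order, in the Med1fl/fl library (circles) and the csMed1-/- library (squares), each a single pool of 5 hearts with no error to show; the dotted line marks 1 FPKM. Fdft1 lies at 22.9 and 7.33 FPKM, Lss at 0.388 and 1.49, and the other 6 genes stay within 2-fold.

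The levels of the 8 enzymes were far apart within each library. In control heart the order was Fdps, Fdft1, Mvd, Hmgcs1, Cyp51, Sqle, Lss and Idi1, from 28.0 down to 0.166 FPKM, a range of 169-fold. In csMed1-/- heart the order was Fdps, Mvd, Fdft1, Lss, Hmgcs1, Cyp51, Sqle and Idi1, from 35.1 down to 0.215 FPKM, a range of 163-fold. Without replicates it cannot be said which neighbours in these orders differ beyond their spread. The median level of the genes kept was 8.58 FPKM in the control and 8.06 FPKM in the csMed1-/- library, and 6 of the 8 enzymes lay below it in each.

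Hmgcs1, which makes HMG-CoA at the entry of the mevalonate pathway, maps to chr13:119690379-119708260 on the plus strand (GRCm38, GENCODE M21). It had 2.12 FPKM in Med1fl/fl heart against 1.21 FPKM in csMed1-/- heart, with a ratio of 0.571. Of all genes kept, 22.6% had a lower ratio.

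Mvd, the decarboxylase that ends the mevalonate segment by making isopentenyl diphosphate, maps to chr8:122433601-122443422 on the minus strand. Its level was 7.32 FPKM in Med1fl/fl heart against 11.5 FPKM in csMed1-/- heart, with a ratio of 1.58. After Lss, this was the highest ratio of the 8, though within 2-fold, and 21.5% of all genes kept had a higher ratio. Mvd was 3.46 times as abundant as Hmgcs1 within the control library and 9.54 times within the csMed1-/- library, a comparison inside each library that does not depend on how the libraries were scaled.

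Idi1, the isomerase that interconverts the isoprene units, maps to chr13:8885501-8892451 on the plus strand. It had 0.166 FPKM in Med1fl/fl heart against 0.215 FPKM in csMed1-/- heart, with a ratio of 1.29 on the lowest values of the 8. In a transcript of its annotated length of 3027 bases these values correspond to about 30 and 54 fragments, as judged from the lowest steps of the deposited values. The paralogue Idi2 is listed at 0 in control and had 0.00417 FPKM in csMed1-/- heart.

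Fdps makes farnesyl diphosphate, from which the sterol, prenyl, dolichol and coenzyme Q branches leave, and maps to chr3:89093588-89101959 on the minus strand. It was the most abundant of the 8 enzymes in both libraries, at 28.0 FPKM in Med1fl/fl heart against 35.1 FPKM in csMed1-/- heart, with a ratio of 1.25. It held 44.7% of the summed FPKM of the 8 enzymes in control and 60.2% in csMed1-/- heart. Of its exon bases 26.7% are shared with Gm43738 on the same strand. That symbol has no row among the values used, and whether the overlap touches the value of Fdps is not known.

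Fdft1, squalene synthase, maps to chr14:63145150-63179578 on the minus strand. It had 22.9 FPKM in Med1fl/fl heart against 7.33 FPKM in csMed1-/- heart, with a ratio of 0.319, which is 3.13-fold lower. Of all genes kept, 8.15% had a lower ratio, and among 2976 genes above 0 in both libraries whose mean level was within 2-fold of that of Fdft1, 14.8% were lower by more than 2-fold. Its share of the summed FPKM of the 8 enzymes was 36.6% in control and 12.6% in csMed1-/- heart. Of the exon bases of Fdft1, 18.3% are shared with Ctsb, a cathepsin gene on the opposite strand with 168.6 and 182.6 FPKM. The study's methods call the libraries directional, but whether the counting used strand is not given in the sources used here. Of the 8 enzymes 6 share exon bases with another annotated gene. Besides Fdps and Fdft1 these are Hmgcs1 (12.1%), Idi1 (9.2%), Cyp51 (3.8%) and Lss (3.5%), each with a gene on the opposite strand. The gene that overlaps Lss, 4930483K19Rik, had 0 and 0.130 FPKM.

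Fdps and Fdft1, successive enzymes at the branch toward squalene, were the 2 most abundant in control and parted in csMed1-/- heart. Within the control library Fdft1 had 0.818 times the level of Fdps, and within the csMed1-/- library 0.209 times, a 3.92-fold difference between the libraries. Summed over the 8 enzymes, FPKM came to 62.6 in control against 58.2 in csMed1-/- heart (ratio 0.930). The direction of the sum rested on Fdft1, since without this gene the sums were 39.7 and 50.9, a ratio of 1.28. It also rested on scaling. The log2 ratio of the sum, -0.105, was smaller in size than the 0.123 by which scaling to equal sums raised all genes.

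Sqle, the epoxidase that oxidizes squalene, maps to chr15:59315077-59331192 on the plus strand. It had 0.439 FPKM in Med1fl/fl heart against 0.500 FPKM in csMed1-/- heart, with a ratio of 1.14, the smallest change of the 8 enzymes. These values correspond to about 72 and 114 fragments over a transcript of 2758 bases.

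Lss, the cyclase that closes the rings of lanosterol, maps to chr10:76531588-76557138 on the plus strand. It had 0.388 FPKM in Med1fl/fl heart against 1.49 FPKM in csMed1-/- heart, with a ratio of 3.85. Of all genes kept, 4.54% had a higher ratio. Lss passed the filter on low values through the csMed1-/- library alone, and among 2614 genes of similar mean level 14.8% were higher by more than 2-fold. Over an annotated transcript of 4667 bases its values correspond to about 108 and 578 fragments. Adding 1 FPKM to both values, which shrinks the change of genes at low level, brought its log2 ratio from 1.95 to 0.85, inside 2-fold. Relative to Sqle, the enzyme before it, Lss had 0.884 times the level within the control library and 2.99 times within the csMed1-/- library.

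Cyp51, the demethylase that acts on lanosterol, maps to chr5:4081145-4104746 on the minus strand. It had 1.24 FPKM in Med1fl/fl heart against 0.877 FPKM in csMed1-/- heart, with a ratio of 0.708. Directly after Lss in the pathway, it thus differed in the opposite direction. It passed the filter on low values through the control library alone, and Lss through the csMed1-/- library alone. Cyp51 was 3.19 times as abundant as Lss within the control library and 0.587 times as abundant within the csMed1-/- library.

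**Figure D2:**
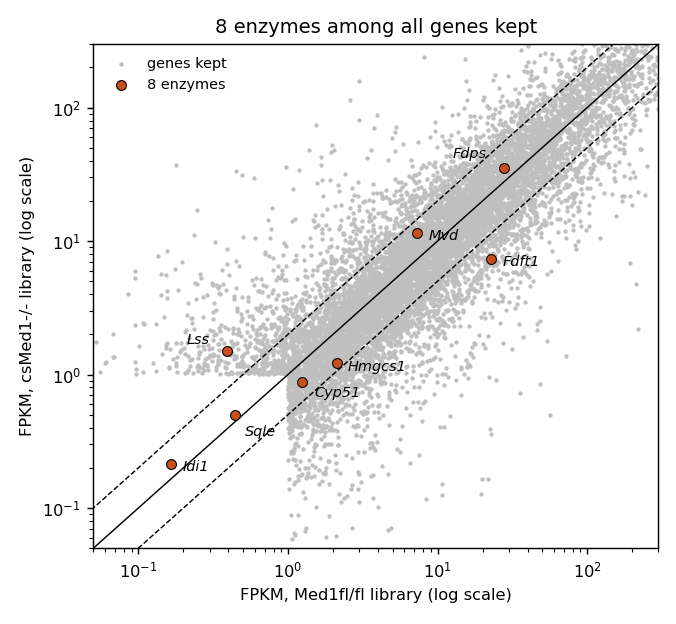
FPKM in the csMed1-/- library against FPKM in the Med1fl/fl library (both log scales, cut off at the axis limits) for the 10489 genes kept (grey) and the 8 enzymes (orange); the solid line marks equal values and the dashed lines 2-fold. Lss lies above and Fdft1 below the dashed lines, and the other 6 lie between them.

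Promoter sequence was available for 5 of the enzymes (RefSeq, GRCm38.p6), and the windows of Lss and Hmgcs1 are shown because their ratios were the highest and the lowest of these 5. The Lss window is chr10:76531355-76531564 on the plus strand, and the Hmgcs1 window is chr13:119690101-119690350 on the plus strand. Each begins 250 bases before the RefSeq start and ends before the first annotated exon. Capitals mark matches, on either strand, to the sterol regulatory element TCACNCCAC, the CCAAT box CCAAT, the GC box GGGCGG and the nuclear receptor motif AGGTCA.
Lss: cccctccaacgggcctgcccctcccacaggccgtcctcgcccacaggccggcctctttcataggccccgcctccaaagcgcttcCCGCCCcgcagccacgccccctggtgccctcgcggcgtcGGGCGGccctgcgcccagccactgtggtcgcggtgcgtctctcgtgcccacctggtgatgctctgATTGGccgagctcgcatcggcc
Hmgcs1: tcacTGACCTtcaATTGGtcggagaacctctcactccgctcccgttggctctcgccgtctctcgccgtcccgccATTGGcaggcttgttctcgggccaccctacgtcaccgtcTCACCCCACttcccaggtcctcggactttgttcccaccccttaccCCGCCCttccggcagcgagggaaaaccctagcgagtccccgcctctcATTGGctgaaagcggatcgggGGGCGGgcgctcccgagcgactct

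In the 250 bases before the start, the CCAAT box, the binding letters of NF-Y, was present in 5 of 5 enzyme windows and in 33.8% of 32851 windows of the same length. The GC box, read by Sp1, was also present in 5 of 5 and in 32.7% of all windows. The sterol regulatory element, the letters that SREBP proteins read, was found in the Hmgcs1 window alone, at positions -137 to -129 from the start, and in 1.05% of all windows. The nuclear receptor motif was likewise found in Hmgcs1 alone and in 14.0% of all windows. None of the 18 matches in the 5 windows overlapped another. Of the 18 matches, 4 lie past the outermost annotated start of their gene, which falls within the 250 bases for Lss, Cyp51 and Idi1. Before that start the CCAAT box was present in 3 of 5 genes and the GC box in 4 of 5, with no match in Idi1. A match is a description of letters and not a bound site, and an absent match says only that these letters are not in this window.

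Of the 13 other enzymes listed for the pathway, 12 had a row of their own and 11 of these passed the filter. In csMed1-/- heart 1 of the 11 was lower by more than 2-fold and 0 were higher by more than 2-fold, beside 18.0% and 13.6% of all genes kept. The 1 gene was Dhcr7, whose product completes the last reduction to cholesterol, at 8.99 FPKM in Med1fl/fl heart against 4.11 FPKM in csMed1-/- heart (ratio 0.457). Pmvk, the kinase that works just before Mvd, had the highest ratio of the list, with 9.95 and 17.3 FPKM (ratio 1.74). Ebp, a sterol isomerase, had 22.2 and 37.1 FPKM (ratio 1.68). The median log2 ratio of the 11 was 0.04. Tm7sf2 shares a row with 1110014N23Rik, which had 19.1 and 30.9 FPKM, and was not counted.

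Among the genes that control the pathway, Srebf2 had 19.8 FPKM in Med1fl/fl heart against 26.3 FPKM in csMed1-/- heart, with a ratio of 1.32, and Srebf1, which drives mainly fatty acid synthesis, had 21.3 and 22.6 FPKM (ratio 1.06). Insig1, which holds the SREBP precursors in the endoplasmic reticulum and is itself induced by them, had 2.03 and 2.05 FPKM (ratio 1.01). Of 9 such genes 8 passed the filter, 1 of them lower and 1 higher by more than 2-fold, beside 18.0% and 13.6% of all genes kept. The higher one was Scap, the sterol sensor that escorts SREBP precursors, at 29.1 and 66.9 FPKM (ratio 2.30), and the lower one was Rnf139, a ubiquitin ligase of the endoplasmic reticulum, at 5.48 and 2.66 FPKM (ratio 0.484). Rnf139 moved inside 2-fold when the ratios were centred on their median, scaled to the 75th percentile or scaled to equal sums. The median log2 ratio of the 8 was 0.09.

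Among 17 genes of sterol uptake, transport, efflux and esterification, 13 passed the filter, 1 lower and 2 higher by more than 2-fold, where 18.0% and 13.6% of all genes kept were lower and higher. Nr1h3, the oxysterol receptor LXRα, had 8.24 FPKM in Med1fl/fl heart against 23.1 FPKM in csMed1-/- heart (ratio 2.81), the highest of the list. The efflux transporters Abca1 and Abcg1, known targets of this receptor, had ratios of 1.22 (0.440 and 0.535 FPKM) and 0.864 (1.02 and 0.881 FPKM). Abca1 did not pass the filter, and Abcg1 passed it through the control library alone. Whether targets of this receptor follow its level was not tested. Lrp1, an endocytic receptor, had 24.8 and 57.9 FPKM (ratio 2.33), and Osbp, an oxysterol binding protein, was the lowest with 29.4 and 10.3 FPKM (ratio 0.351).

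**Figure D3:**
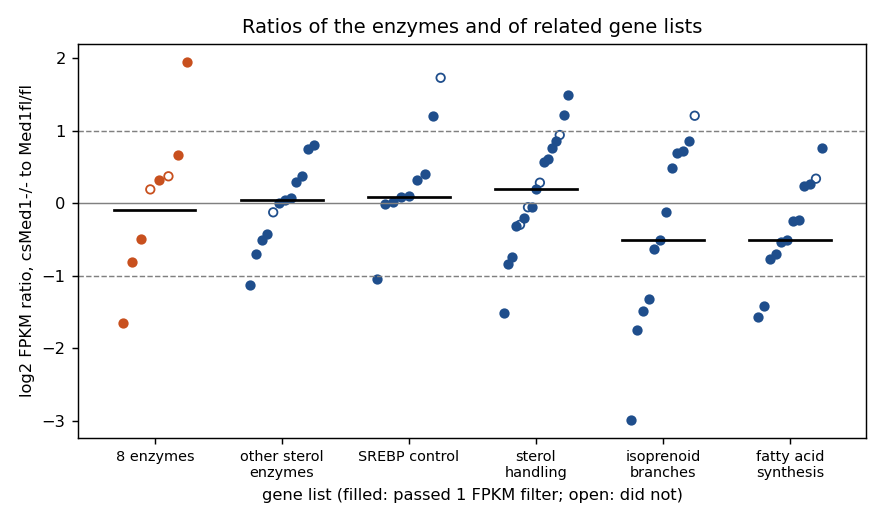
log2 ratio of csMed1-/- to Med1fl/fl FPKM for each gene of 6 lists, 1 point per gene; filled points passed the filter of 1 FPKM, open points did not, bars are medians of the filled points and dashed lines mark 2-fold. The 8 enzymes run from -1.65 to 1.95, with their bar at -0.09.

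The RNA came from whole heart, so fewer cells of a type and less RNA per cell cannot be told apart. Among all genes kept, 18.0% were lower and 13.6% higher by more than 2-fold, and the marker counts below stand beside these shares. Of 8 cardiomyocyte markers that passed, 5 were lower and 2 higher by more than 2-fold, with a summed level, Actc1 included, of 51862 FPKM in Med1fl/fl heart against 41352 FPKM in csMed1-/- heart. Without Actc1, whose 0 in control can be a failed estimate, the sums were 51862 and 32163 FPKM. The lowest ratio among these markers was that of Pln (771.4 and 56.2 FPKM) and the highest that of Nppa (468.5 and 11114 FPKM), which heart muscle makes under load. Nppa and Nppb (167.5 and 1480 FPKM) were the 2 higher markers and are part of the sums above, while the other 6 that passed were lower. Of 9 fibroblast markers, 1 was lower and 4 were higher by more than 2-fold, with sums of 682 and 1463 FPKM. Among them the lowest ratio was that of Lum (8.04 and 3.72 FPKM) and the highest that of Postn (1.57 and 27.4 FPKM). Of 7 macrophage markers that passed, 0 were lower and 1 was higher (334 and 383 FPKM for the list), between Emr1 at 3.33 and 1.77 FPKM and Cd14 at 9.44 and 23.1 FPKM. Of 8 endothelial markers, 3 were lower and 1 was higher (442 and 339 FPKM), between Tek at 8.50 and 2.28 FPKM and Vwf at 15.3 and 55.4 FPKM. Of 7 smooth muscle markers 2 were lower and 2 higher by more than 2-fold (783 and 1128 FPKM). Their ratios ran from that of Smtn (118.8 and 41.1 FPKM) to that of Cnn1 (4.32 and 622 FPKM). The adipocyte markers Lep, Retn, Cfd and Ucp1 were listed at 0 in both libraries, and Cidea, the only one of 8 adipocyte markers past the filter, had 37.6 and 81.4 FPKM. The part of these marker lists in the values of the 8 enzymes was not tested.

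**Figure D4:**
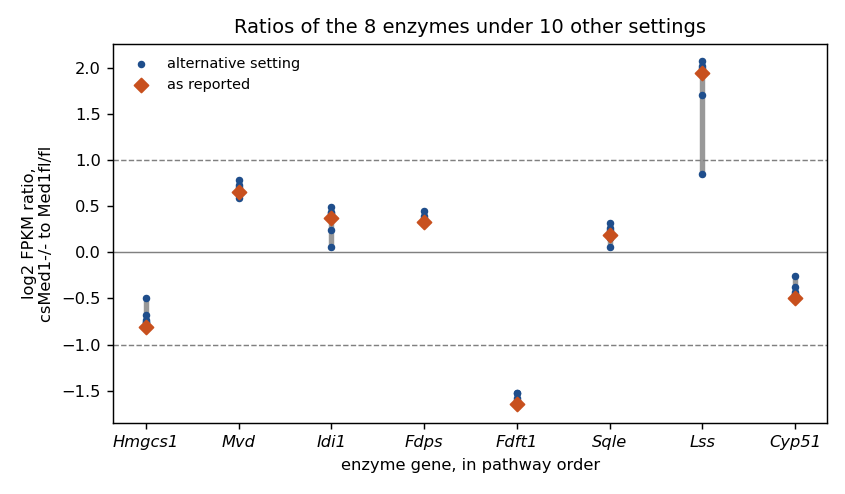
log2 ratio of csMed1-/- to Med1fl/fl FPKM for each of the 8 enzymes as reported (diamonds) and under 10 other settings of pseudocount, filter, scaling and row choice (points, with a bar over their range); dashed lines mark 2-fold. Filters and row choice leave each ratio as it was, so the spread comes from 2 pseudocounts and 4 scalings; Fdft1 lies between -1.66 and -1.52, and Lss runs from 0.85 to 2.07.

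Of these 10 settings, 4 (the filters and the row choice) leave the ratio of every enzyme as it was, and the 2 pseudocounts cannot turn a sign. The other 4 are scalings, which shift all genes alike, and under these Fdft1 stayed lower and Lss higher by more than 2-fold. Lss crossed the 2-fold line under the pseudocount of 1 FPKM.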

How the data were processed

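RNA-seq was read from 2 libraries, 1 per genotype, each from the pooled heart RNA of 5 mice. Per the labels and the study's methods, oligo-dT selected RNA was made into directional libraries, and single ends of 50 nt were sequenced. The authors mapped them to mm10 with TopHat v2.0.8b and deposited FPKM values of known genes computed with Cufflinks and Cuffdiff v2.1.1. The submitters' processing notes also name STAR 2.4.0h, Bowtie2 and a package for testing read counts, without their roles, so how the values were made is not fully settled. The library scaling is not given in the sources used here.

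FPKM values of rows sharing a symbol were summed, and the plain csMed1-/- to control ratio was taken. A gene was kept if neither value was 0 and the larger reached 1 FPKM. No statistical test was possible with 1 library per genotype. Counts of fragments are approximate, from the lowest values of 1174 genes with a single annotated transcript in the control library. They were carried to the csMed1-/- library by the most frequent ratio of low values. The rule for named genes was all 8 enzymes, Med1, and any gene of the other lists with both values, always including its highest and lowest ratio. A gene of these lists is not reported here. The members and lists were chosen with earlier results of these data known. Gene positions are from GENCODE M21 (GRCm38) and promoters from RefSeq. The ratio and count steps were tested on simulated data. There were 11 alternatives. Python 3.11.15, numpy 2.4.6, pandas 2.3.3 and matplotlib 3.10.9 were used.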

Additional observations from a re-analysis of the deposited data

How the results depend on the processing

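No paired analysis was possible because each genotype has 1 library, and for the same reason no replicate could be left out. The filters and the row choice leave the ratio of each enzyme as it was and pseudocounts cannot turn its sign, so only the 4 scalings bear on the signs, and none turned under them. Lss changed its side of 2-fold with a pseudocount of 1. The median log2 ratio of the enzymes that passed was -0.09 as reported. It was -0.0665 with a pseudocount of 0.1, 0.0292 with a pseudocount of 1, 0.26 with no filter, -0.24 at 1 FPKM in both libraries, 0.32 at 10 FPKM in at least one, -0.0170 centred on the median of all genes, -0.0375 scaled to the 75th percentile, 0.0356 scaled to equal sums and -0.10 without the 100 highest genes, so its sign depended on these choices. Scaling to equal sums shifted the median of all genes by 0.12. The count of enzymes higher by more than 2-fold was 0 with a pseudocount of 1, at 1 FPKM in both libraries and at 10 FPKM, since Lss is below 1 FPKM in control and below 10 FPKM in both. With a 4-fold threshold 0 enzymes were lower and 0 higher. Among the other enzymes, the count lower was 0 with a pseudocount of 1, at 10 FPKM and at 4-fold. Among the genes that control the pathway, the count lower was 0 with a pseudocount of 1, at 10 FPKM, centred on the median, at the 75th percentile, at equal sums and at 4-fold, and the count higher was 2 with no filter and 0 at 4-fold. Over all genes, 3182 of 15930 were lower and 2504 higher with no filter, and 885 and 821 of 5426 at 10 FPKM. At 4-fold 539 of 10489 were lower and 453 higher. With a pseudocount of 1 the counts were 1291 and 1081 of 10489, and at 1 FPKM in both libraries 1342 and 1037 of 9160. Those lower were 1736, 1773 and 1629 of 10489 when centred on the median, at the 75th percentile and at equal sums. The limits are the missing replicates and the low level of Idi1, Sqle, Lss and Cyp51.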

Other observations

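Other branches leave the pathway at farnesyl diphosphate, the product of Fdps. Of 12 genes of prenyl transfer, dolichol and coenzyme Q synthesis 11 passed the filter, 4 were lower and 0 higher by more than 2-fold in csMed1-/- heart, and the median log2 ratio was -0.50. Over all genes kept 18.0% were lower and 13.6% higher, with a median of -0.07. Pdss1, which builds the isoprene tail of coenzyme Q, was lowest with 4.59 FPKM in Med1fl/fl heart against 0.581 FPKM in csMed1-/- heart (ratio 0.127). Its partner Pdss2 had 14.0 and 4.18 FPKM (ratio 0.299), and Rabggtb, a subunit of the enzyme that prenylates Rab proteins, had 26.0 and 9.29 FPKM (ratio 0.358). Fnta, a shared subunit of the farnesyl and geranylgeranyl transferases, had 31.8 and 12.7 FPKM (ratio 0.400). Of the dolichol branch, Dhdds had 17.9 and 29.0 FPKM (ratio 1.62) and Nus1 had 1.07 and 1.94 FPKM (ratio 1.81), the highest of those that passed the filter. Ggps1, which makes geranylgeranyl diphosphate, had 1.23 and 2.03 FPKM (ratio 1.64).

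Fatty acid synthesis, which SREBP proteins also control, had 11 of 12 genes past the filter, 2 lower and 0 higher by more than 2-fold beside 18.0% and 13.6% of all genes kept. The lowest was Acacb, the carboxylase that regulates fatty acid entry into mitochondria, at 117.8 and 39.7 FPKM (ratio 0.337), and Scd2, a desaturase, had 7.66 and 2.88 FPKM (ratio 0.375). Fasn, fatty acid synthase, was highest at 9.06 and 15.3 FPKM (ratio 1.69). The median log2 ratio was -0.50. No replicates exist for any of these values.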
